A study of Mus musculus with 6 samples.

Results

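The mitochondrial carrier family comprised the protein-coding genes with a symbol starting Slc25a, together with the uncoupling protein genes Ucp1, Ucp2 and Ucp3. The rule found 50 members among the 50686 genes of the count table, and 40 of them had enough counts to be tested. RNA had been sequenced from whole lacrimal glands, the glands that secrete the aqueous layer of tears, taken from mice 13 weeks old. The mutant mice were Eda-/-, titled Tabby in the labels, and the others were wild-type, titled Blacky, with 3 biological replicates in each group and the same C57BL/6 strain label throughout. The Eda gene codes for ectodysplasin A, a tumour necrosis factor relative on which hair follicles, teeth and many exocrine glands depend as they form, and the labels name no restriction of its loss to any cell type. The labels give neither litters nor how long the mutant line had been bred to the strain. In whole glands, fewer cells of a type and less RNA per cell cannot be told apart.

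Mitochondrial carriers are small proteins of the inner membrane, built from repeats of a pair of helices, that exchange solutes between the cytosol and the matrix. They pass adenine nucleotides and phosphate for the synthesis of ATP, the metabolites of the malate-aspartate and citrate shuttles, amino acids, cofactors and iron. Uncoupling proteins are close relatives, and the best known of them lets protons leak across the membrane to make heat in brown fat. Secretory acinar cells, the bulk of a lacrimal gland, rely on mitochondrial ATP for protein synthesis and for the ion pumps behind fluid secretion.

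The libraries held between 11894395 and 15700899 counts. Eda had 0.175, 0 and 0 CPM (counts scaled to the library total times its TMM factor) in the Eda-/- libraries, against 2.56, 2.82 and 2.70 CPM in the wild-type libraries, so each library matched its label. The acinar transcription factor gene Bhlha15 stood at 428, 465 and 412 CPM in Eda-/- glands, against 336, 356 and 327 CPM in wild-type glands. Of 7 tested acinar markers it alone passed, higher, with 4 values above 0 and 3 below and a median of 0.033; with library totals 3 were lower, and without Eda-/- 2 there were 2 higher and 1 lower. Summed over these 7 markers, the level was 1132 to 1199 CPM in Eda-/- glands and 1046 to 1067 CPM in wild-type glands. As a plain share of all counts the sum was 0.105% to 0.106% in Eda-/- glands and 0.113% to 0.121% in wild-type glands, the opposite direction. None of the 10 skeletal muscle markers passed the filter on low counts. Over all tested genes 6.21% were higher and 6.9% lower, the shares to set beside the marker counts of this paragraph. Of other cell type markers, 3 of 6 fibroblast genes were lower (2 without any 1 Eda-/- library, 4 without wild-type 1). Higher were 2 of 3 tested white fat genes, which became 1 without Eda-/- 1, Eda-/- 2, wild-type 1 or wild-type 3 and with DESeq2, limma-voom or library totals. Higher too was 1 of 6 endothelial genes, which passed in none of the 6 fits that left out a library, nor with DESeq2, library totals or the replicate block. None of 4 tested duct genes passed edgeR's or DESeq2's test, and 1 had an unadjusted p under 0.05. With library totals 2 were lower, and with a GC and length trend taken out 1 was higher. Of the 2 Harderian gland markers, Scd3 had 3 to 12 counts, while Alas1, which other tissues also express, had 93.4, 122 and 89.1 CPM in Eda-/- glands, against 100.3, 153 and 135 CPM in wild-type glands (log2 fold change -0.35, edgeR adjusted p = 0.335; lower with the replicate block and without wild-type 1). The part of these cells in the carrier values was not tested. The 10 most abundant genes of each library took a larger part of the mutant libraries. They held 54.4% to 55.1% of counts in Eda-/- glands and 48.1% to 49.9% in wild-type glands. For this reason the library totals were adjusted by the trimmed mean of M-values (TMM). With plain library totals the median of all tested genes shifted to -0.28 on the log2 scale, against 0.003 with TMM, and differences are given here relative to TMM.

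Of the 40 tested members, 4 were higher and 1 was lower in Eda-/- glands by edgeR's quasi-likelihood F test, at an adjusted p under 0.05 (Benjamini-Hochberg over all tested genes). Over all 13178 tested genes 13.1% passed, 6.21% higher and 6.9% lower, so the share of carriers past the test, 12.5%, was near that of all genes. The 4 higher members were Slc25a29, Slc25a5, Ucp2 and Slc25a12, and the lower member was Slc25a51. An unadjusted p under 0.05 was found for 13 members. The median log2 fold change of the 40 was 0.065, beside 0.003 over all tested genes, with 25 values above 0 and 15 below. In 11 members the Eda-/- libraries all lay above the wild-type libraries and in 6 they all lay below, where 15.9% and 16.2% of all tested genes did so. The summed level of the family was 1065, 1122 and 1038 CPM in Eda-/- glands and 1019, 1044 and 982 CPM in wild-type glands, and the groups overlapped. As a plain share of all counts, the family made up 0.0996%, 0.101% and 0.0919% in Eda-/- glands and 0.110%, 0.113% and 0.112% in wild-type glands, so its summed level has the opposite direction without TMM.

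**Figure D1:**
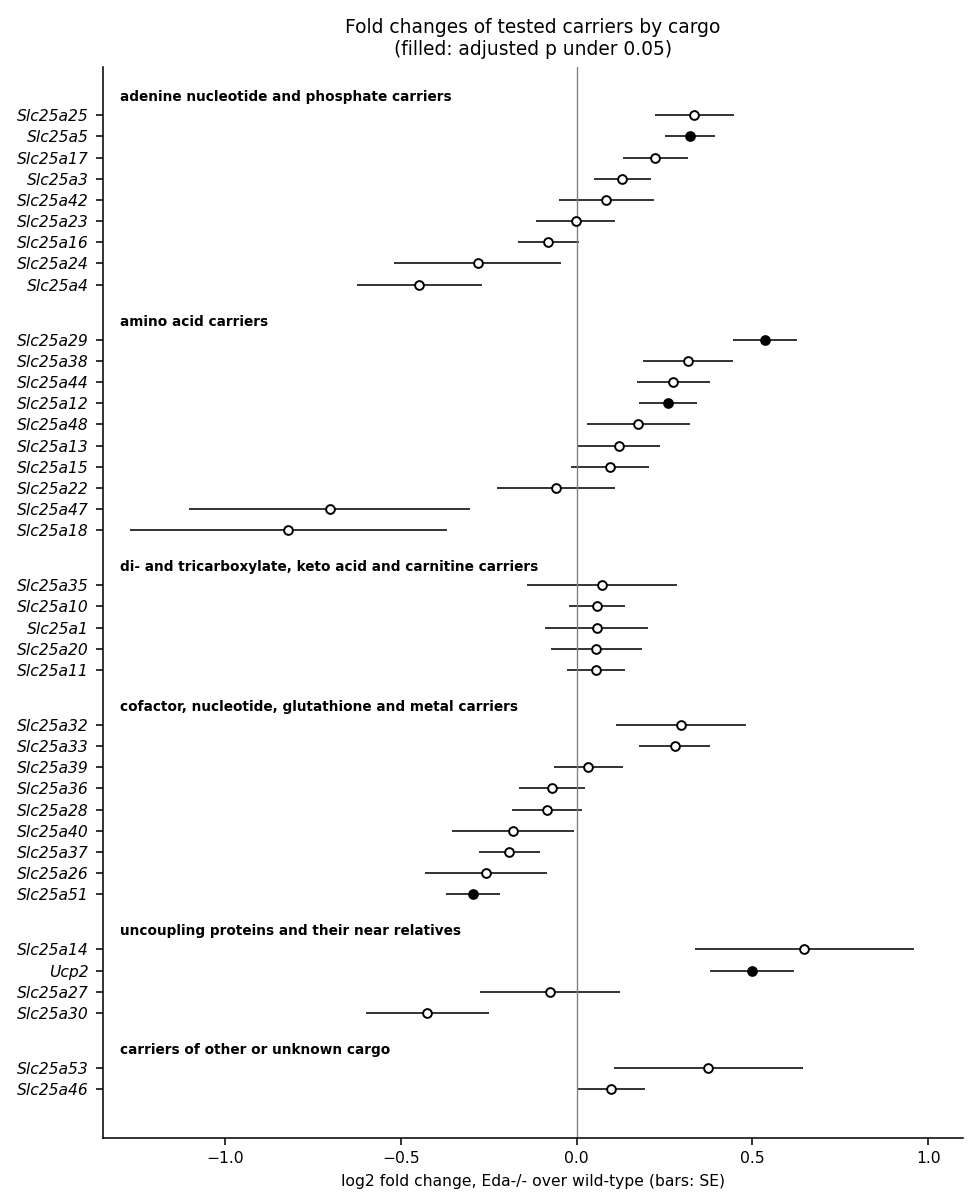
Log2 fold changes of 39 of the 40 tested carriers, Eda-/- over wild-type, on the horizontal axis with bars of 1 standard error, sorted by cargo down the page. Filled points are the 5 members with an adjusted p under 0.05; they lie between -0.30 for Slc25a51 and 0.54 for Slc25a29, and the values farthest from 0, Slc25a18, Slc25a47 and Slc25a14, have wide bars and did not pass.

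Transcript levels within the family spanned a wide range. To compare genes, CPM was divided by the length of exon in kilobases. Slc25a5, which encodes the adenine nucleotide translocase found in most dividing and secretory cells, led with 67.3 ± 4.29 CPM per kb in Eda-/- glands and 53.8 ± 0.487 CPM per kb in wild-type glands (SD, n = 3 each). It stood 17.0 times above the median tested member, which had 3.56 CPM per kb. The dicarboxylate carrier gene Slc25a10 followed with 24.3 ± 1.94 CPM per kb in Eda-/- glands and 23.3 ± 1.51 in wild-type glands, and its lowest library was above the highest of the next member. That next member was Slc25a11, the carrier of 2-oxoglutarate for malate, with 19.6 ± 0.820 CPM per kb in Eda-/- glands and 18.8 ± 1.31 in wild-type glands. The phosphate carrier gene Slc25a3 had 18.1 ± 1.95 CPM per kb in Eda-/- glands and 16.5 ± 0.474 in wild-type glands. Slc25a36, a pyrimidine nucleotide carrier, had 16.1 ± 2.30 CPM per kb in Eda-/- glands and 16.9 ± 0.980 in wild-type glands. The libraries of Slc25a11, Slc25a3 and Slc25a36 overlapped in level, so their order is not firm. The ranking used the mean of all 6 libraries. In wild-type glands alone Slc25a51, with 16.6 CPM per kb, stood just above Slc25a3, so membership of the leading 5 is not firm either. The 5 leading members held 49.5% of the summed level per kb and the 10 leading members 72.4%. In all, 9 members reached 10 CPM per kb and 33 reached 1 CPM per kb. Of the 5 leading members only Slc25a5 passed the test; the log2 fold changes of the other 4 were 0.06 (SE 0.0796, adjusted p = 0.693) for Slc25a10, 0.05 (SE 0.0815, adjusted p = 0.722) for Slc25a11, 0.13 (SE 0.0814, adjusted p = 0.332) for Slc25a3 and -0.07 (SE 0.0951, adjusted p = 0.693) for Slc25a36. The signs of these 4 depend on the settings, in that Slc25a10, Slc25a11 and Slc25a3 lie below 0 with library totals and Slc25a36 lies above 0 once a GC and length trend is taken out.

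**Figure D2:**
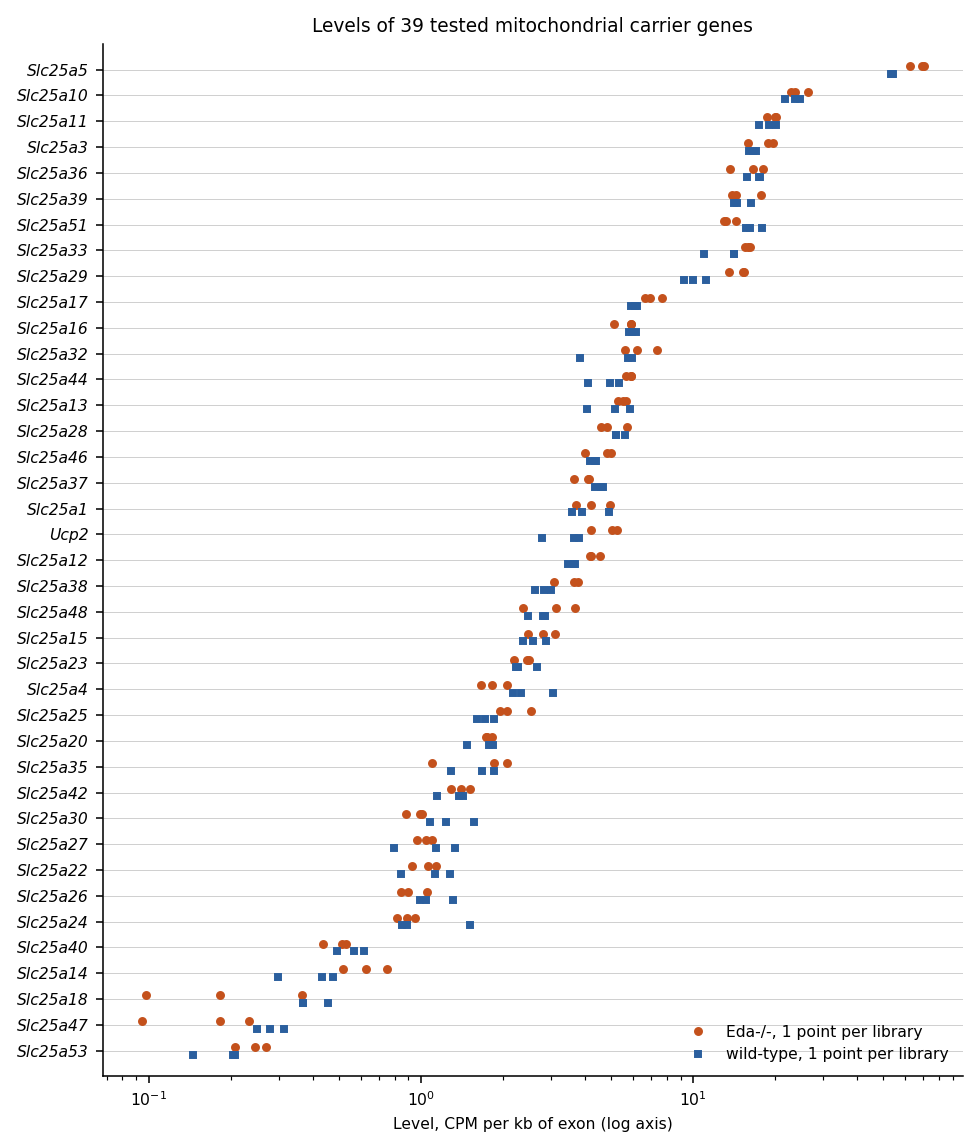
Level of 39 of the 40 tested carriers in CPM per kb of exon on a log axis, with 1 circle for each Eda-/- library and 1 square for each wild-type library, sorted by mean level. Slc25a5 stands alone at the top, Slc25a10 second, and the groups overlap in most rows.

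Among the adenine nucleotide and phosphate carriers, 1 of 9 tested members was higher and none was lower (median log2 fold change 0.083). Slc25a5 (ENSMUSG00000016319, build GRCm38, plus strand of chromosome X from 36795651 to 36798807) had 116, 114 and 103 CPM in Eda-/- glands, against 88.6, 89.3 and 87.7 CPM in wild-type glands. Every Eda-/- library lay above every wild-type library, and the wild-type values were close together. The log2 fold change was 0.32 (SE 0.0711, edgeR adjusted p = 0.0074). Near-identical copies limit this value, since 49.4% of the 31-base words of Slc25a5 also occur in transcripts of other genes. The 10 pseudogenes that share at least 1% of them were listed with 3, 4 and 2 counts in all in the Eda-/- libraries and 5, 6 and 6 in the wild-type libraries. With library totals its log2 fold change was 0.04 and did not pass (adjusted p = 0.659).

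Slc25a4, the translocase isoform of heart and skeletal muscle, had 4.28, 4.87 and 3.90 CPM in Eda-/- glands, against 5.11, 5.47 and 7.19 CPM in wild-type glands. The groups did not overlap, but the log2 fold change of -0.45 (SE 0.178) did not pass (edgeR adjusted p = 0.114). None of its 31-base words occur in other genes. The ratio of Slc25a4 to Slc25a5 within a library does not depend on scaling. Its log2 value was -4.75, -4.53 and -4.71 in Eda-/- glands and -4.11, -4.02 and -3.60 in wild-type glands, without overlap. The difference was -0.75 (two-sided exact permutation test, p = 0.1, the smallest that 3 against 3 allows; adjusted over the 8 pairs compared, p = 0.4). Per kb of exon, Slc25a4 stood at 0.028 of the level of Slc25a5 in Eda-/- glands and at 0.047 in wild-type glands. Beside this, the markers of contractile cells differed: of the 7 myoepithelial markers 4 fell and none rose, where 6.9% of all tested genes fell. The count was 2 without Eda-/- 1, Eda-/- 3, wild-type 2 or wild-type 3, and with limma-voom. The summed level of these markers was 96.8 to 113 CPM in Eda-/- glands and 132 to 170 CPM in wild-type glands. Their part in the Slc25a4 values was not tested. The skeletal muscle markers summed to 0.546 to 1.40 CPM in Eda-/- glands and 0.765 to 2.18 CPM in wild-type glands.

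The calcium-regulated carriers that exchange ATP-magnesium for phosphate gave differing values. Slc25a25 had 16.3, 19.96 and 15.3 CPM in Eda-/- glands, against 12.7, 14.5 and 13.5 CPM in wild-type glands, without overlap. Its log2 fold change of 0.33 (SE 0.113) had the smallest p among the members that did not pass (edgeR adjusted p = 0.0648), and it passed under 3 of the 17 other settings. Its paralogues Slc25a23 and Slc25a24 had log2 fold changes of -0.003 and -0.28, and neither passed. Slc25a17, a peroxisomal carrier of coenzyme A and other nucleotide cofactors, had 19.8, 21.9 and 18.9 CPM in Eda-/- glands, against 17.6, 17.4 and 16.8 CPM in wild-type glands (log2 fold change 0.22, adjusted p = 0.130). The coenzyme A carrier gene Slc25a42 (0.08) and its relative Slc25a16 (-0.08) had values near 0.

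Among the amino acid carriers, 2 of 10 tested members were higher and none was lower (median 0.147). Slc25a29 (ENSMUSG00000021265, chromosome 12, 108825873 to 108835883, minus strand), which carries arginine, lysine and other basic amino acids, had 39.99, 39.6 and 35.4 CPM in Eda-/- glands, against 26.1, 28.9 and 24.2 CPM in wild-type glands. The lowest Eda-/- library was well above the highest wild-type library. The log2 fold change was 0.54 (SE 0.0909, edgeR adjusted p = 0.00111), the smallest p in the family. It passed under each of the 17 other settings tried, with log2 fold changes between 0.26 and 0.62. None of its 31-base words occur in other genes. Several genes around it also differed: of 11 other tested genes within 1 Mb, 5 passed, 3 of them with more than a 2-fold change. Around the other members past the test the counts were 7 of 24 for Ucp2, 1 of 15 for Slc25a5, 1 of 11 for Slc25a12 and 0 of 16 for Slc25a51. Around the members that came nearest to passing they were 8 of 36 for Slc25a25, 8 of 24 for Slc25a33 and 6 of 54 for Slc25a44, beside 13.1% of all tested genes. The part of the chromosomal neighbourhood in the Slc25a29 values was not tested. Slc25a47, which lies on the opposite strand with a gap of 162 bases to Slc25a29, had 0.698, 0.281 and 0.546 CPM in Eda-/- glands, against 0.748, 0.941 and 0.834 CPM in wild-type glands, and did not pass (log2 fold change -0.70, adjusted p = 0.278).

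Slc25a12 (ENSMUSG00000027010, chromosome 2, 71271063 to 71367749, minus strand) encodes the aspartate-glutamate carrier that drives the malate-aspartate shuttle in brain and muscle. It had 33.4, 30.9 and 30.6 CPM in Eda-/- glands, against 25.6, 26.8 and 27.0 CPM in wild-type glands. The groups did not overlap, and the log2 fold change was 0.26 (SE 0.0824, edgeR adjusted p = 0.0494), just inside the threshold. It passed under 2 of the 17 other settings, and without any 1 of the 6 libraries it did not pass (adjusted p between 0.0761 and 0.128); with library totals its sign turned (-0.02). Its paralogue Slc25a13, the isoform of liver, had 20.95, 20.1 and 21.4 CPM in Eda-/- glands, against 15.5, 22.3 and 19.6 CPM in wild-type glands, with overlap. The log2 ratio of Slc25a12 to Slc25a13 was 0.603 ± 0.083 in Eda-/- glands and 0.480 ± 0.233 in wild-type glands (SD, n = 3 each; exact permutation test, p = 0.5).

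Slc25a44, a carrier of branched-chain amino acids, had 21.1, 21.1 and 20.4 CPM in Eda-/- glands, against 17.8, 19.2 and 14.7 CPM in wild-type glands. The groups did not overlap, but the log2 fold change of 0.27 (SE 0.104) did not pass (edgeR adjusted p = 0.0989), and it was -0.003 with library totals. The glycine carrier gene Slc25a38, needed for the first step of heme synthesis, had a log2 fold change of 0.32 (adjusted p = 0.124). The ornithine carrier gene Slc25a15 had 0.10 (adjusted p = 0.643). The glutamate carrier genes Slc25a22 (-0.06) and Slc25a18 (-0.82) did not pass either, and Slc25a18 was at or below 0.873 CPM in all 6 libraries. Slc25a48, which has been tied to choline, had 8.03, 12.5 and 10.6 CPM in Eda-/- glands, against 9.66, 9.47 and 8.34 CPM in wild-type glands, with overlap (0.17, adjusted p = 0.485).

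Of the groups by cargo, the tested carriers of di- and tricarboxylates and carnitine had the narrowest range of log2 fold changes. None of 5 tested members passed, and their log2 fold changes lay between 0.05 and 0.07, with SEs from 0.0796 to 0.213. With library totals 1 was lower. Slc25a34, of the same group, had too few counts to be tested and is described below. The citrate carrier gene Slc25a1, which exports citrate for lipid synthesis, had 8.03, 9.09 and 10.7 CPM in Eda-/- glands, against 7.79, 8.47 and 10.6 CPM in wild-type glands, almost the same range. The carnitine-acylcarnitine carrier gene Slc25a20 had 8.38, 8.43 and 8.81 CPM in Eda-/- glands, against 8.605, 7.18 and 8.92 CPM in wild-type glands. Slc25a35, whose cargo is little known, shares 31.3% of its exon length with Rangrf on the opposite strand. The strand setting of the counting is not given in the sources used here, so its value (0.07) is uncertain.

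Among the carriers of cofactors, nucleotides, glutathione and metals, 1 of 10 tested members was lower and none was higher (median -0.078). Slc25a51 (ENSMUSG00000045973, chromosome 4, 45395923 to 45408766, minus strand), the importer of NAD+ into mitochondria, had 71.8, 79.2 and 72.5 CPM in Eda-/- glands, against 89.5, 98.2 and 86.5 CPM in wild-type glands. Every Eda-/- library lay below every wild-type library. The log2 fold change was -0.30 (SE 0.0762, edgeR adjusted p = 0.0184). It was negative under each of the 17 other settings. Without Eda-/- 1, Eda-/- 3 or wild-type 2 it did not pass (adjusted p = 0.0524, 0.0763 and 0.126).

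Slc25a33 and Slc25a36 carry pyrimidine nucleotides used for mitochondrial DNA and RNA. Slc25a33 had 30.6, 30.0 and 29.2 CPM in Eda-/- glands, against 26.6, 26.8 and 20.6 CPM in wild-type glands, without overlap (log2 fold change 0.28, SE 0.102, edgeR adjusted p = 0.0862). The log2 ratio of Slc25a36 to Slc25a33 was 2.09, 2.53 and 2.45 in Eda-/- glands and 2.66, 2.64 and 2.88 in wild-type glands. All 3 Eda-/- libraries had the lower ratio, with a difference of -0.37 (exact permutation test, p = 0.1, the smallest possible; adjusted p = 0.4). Slc25a33 shares 14.9% of its exon length with the antisense gene Gm13068, which had at most 1 count in any library.

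The iron and glutathione carriers did not pass. Slc25a37, the mitoferrin of red cell precursors, had 24.97, 24.7 and 21.9 CPM in Eda-/- glands, against 28.0, 26.2 and 27.5 CPM in wild-type glands, without overlap (log2 fold change -0.19, SE 0.0879, edgeR adjusted p = 0.172). Erythroid markers lay in the same direction: 3 of 5 tested fell, where 6.9% of all tested genes fell. The count was 1 without Eda-/- 1 or wild-type 2, and 5 without Eda-/- 2 or with library totals. These markers summed to 7.51, 14.9 and 5.22 CPM in Eda-/- glands, against 19.6, 29.2 and 22.5 CPM in wild-type glands. Their part in the Slc25a37 values was not tested. Slc25a28, the mitoferrin of other tissues, had a log2 fold change of -0.08. The glutathione carrier gene Slc25a39 had 48.9, 39.6 and 38.4 CPM in Eda-/- glands, against 39.0, 39.9 and 45.1 CPM in wild-type glands, with wide overlap, and its paralogue Slc25a40 had a log2 fold change of -0.18 (adjusted p = 0.550). The carriers of folate (Slc25a32, 0.30) and S-adenosylmethionine (Slc25a26, -0.26) did not pass.

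Among the uncoupling proteins and their relatives, 1 of 4 tested members was higher and none was lower. Ucp2 (ENSMUSG00000033685, chromosome 7, 100493337 to 100502020, plus strand), the isoform found in many tissues and in immune cells, had 36.8, 35.2 and 29.4 CPM in Eda-/- glands, against 19.5, 25.5 and 26.6 CPM in wild-type glands. The groups did not overlap, although Eda-/- 3 and wild-type 3 were close. The log2 fold change was 0.50 (SE 0.121, edgeR adjusted p = 0.0161). Without Eda-/- 1 or Eda-/- 2 it was 0.44 and 0.47 and did not pass (adjusted p = 0.0840 and 0.0663), and with library totals it was 0.22 (adjusted p = 0.241). Of 24 other tested genes within 1 Mb of Ucp2, 7 passed, 2 of them with more than a 2-fold change. Macrophage markers lay in the opposite direction to Ucp2: all 12 tested had values below 0 and 6 fell, where 6.9% of all tested genes fell. The count was 3 without Eda-/- 2 or Eda-/- 3, and 12 with library totals. The macrophage markers summed to 52.6, 44.4 and 43.4 CPM in Eda-/- glands, against 92.1, 99.98 and 181 CPM in wild-type glands. Plasma and B cell markers summed to 51.6, 22.1 and 40.8 CPM in Eda-/- glands, against 6.80, 28.6 and 5.91 CPM in wild-type glands. Of these 6 markers 1 was tested, and it did not pass, although it was higher with limma-voom. The T cell markers summed to 0.698 to 0.843 CPM in Eda-/- glands and 1.35 to 2.18 CPM in wild-type glands, too low for any to be tested. The part of these cells in the Ucp2 values was not tested.

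The relatives of the uncoupling proteins did not pass. Slc25a30, described in kidney, had 4.63, 4.03 and 4.52 CPM in Eda-/- glands, against 7.17, 4.94 and 5.65 CPM in wild-type glands, without overlap (log2 fold change -0.43, edgeR adjusted p = 0.129). Slc25a14, a brain relative, had 1.22, 1.78 and 1.48 CPM in Eda-/- glands, against 1.12, 0.706 and 1.03 CPM in wild-type glands, also without overlap (0.65, adjusted p = 0.192). Slc25a27, another brain relative, had a log2 fold change of -0.08. Of the carriers of other or unknown cargo, Slc25a46, an outer membrane protein of mitochondrial dynamics, had 0.10 and Slc25a53 had 0.37 (adjusted p = 0.570 and 0.403). Ucp1, the heat-making protein of brown fat, had 1 count in each Eda-/- library and 0, 2 and 0 counts in the wild-type libraries. The 7 brown fat markers summed to 1.834, 1.499 and 1.559 CPM in Eda-/- glands, against 3.055, 2.823 and 2.824 CPM in wild-type glands. The sum was lower in every Eda-/- library through Prdm16 alone, and without Prdm16 the sums of the groups overlapped. Prdm16 was the only marker tested, with 0.349, 0.656 and 0.234 CPM in Eda-/- glands, against 1.75, 1.82 and 1.93 CPM in wild-type glands (log2 fold change -2.16, edgeR adjusted p = 0.00119). Cox8b and Elovl3 had no counts in any Eda-/- library and 1 count each in a single wild-type library. The part of such cells in the carrier values was not tested.

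**Figure D3:**
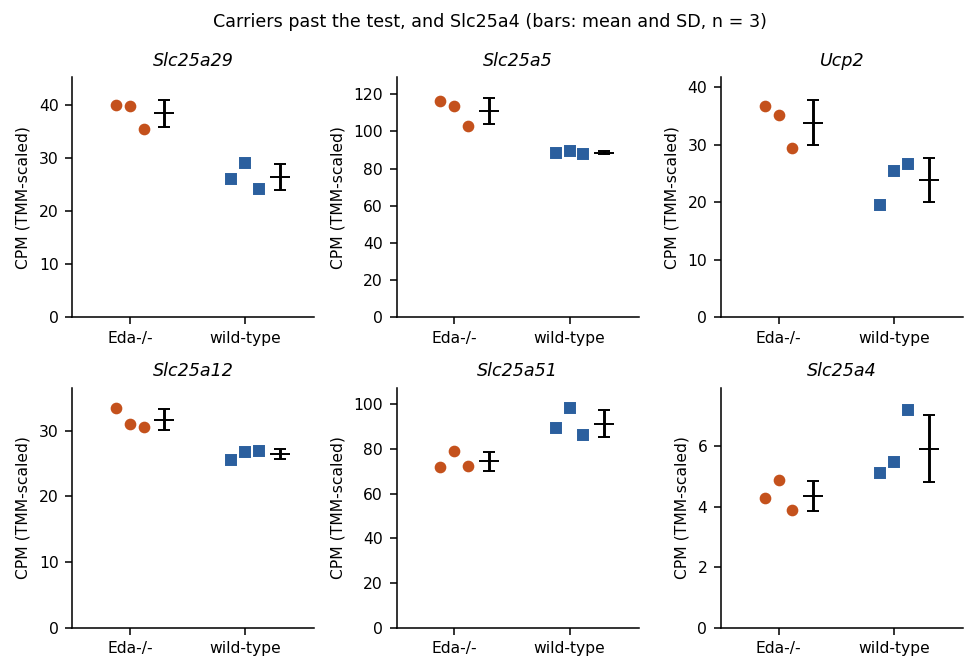
CPM of the 5 carriers past the test and of Slc25a4 in each library, with mean and SD bars (n = 3), Eda-/- on the left and wild-type on the right of each panel; each vertical axis starts at 0. In all 6 panels the groups do not overlap, and only Slc25a51 and Slc25a4 are lower in Eda-/- glands.

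The promoter windows of 4 of the 5 members past the test are shown because their transcripts differed between the groups, and Slc25a51 had no window. Each runs from 250 bases before to 50 bases after the RefSeq start (GRCm38.p6), 5′ to 3′ on the gene's strand, and 39 of the 50 members had one. Capitals mark matches on either strand to any of 6 motifs, which were chosen with the values known: the TATA box (TATANA), the CCAAT box (CCAAT), the GC box (GGGCGG), the E-box (CACGTG), the ETS core (CCGGAAG) and the NF-kB motif. The windows lie at chr12:108835827-108836126 (minus strand) for Slc25a29, chrX:36795347-36795646 (plus) for Slc25a5, chr7:100493108-100493407 (plus) for Ucp2 and chr2:71367706-71368005 (minus) for Slc25a12.
Slc25a29: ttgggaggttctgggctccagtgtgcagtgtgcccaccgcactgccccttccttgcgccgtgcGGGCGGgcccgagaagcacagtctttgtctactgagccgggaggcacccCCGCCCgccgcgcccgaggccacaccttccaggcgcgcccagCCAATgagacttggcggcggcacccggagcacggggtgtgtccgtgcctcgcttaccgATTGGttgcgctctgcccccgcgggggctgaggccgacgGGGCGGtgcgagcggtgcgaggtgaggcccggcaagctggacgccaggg
Slc25a5: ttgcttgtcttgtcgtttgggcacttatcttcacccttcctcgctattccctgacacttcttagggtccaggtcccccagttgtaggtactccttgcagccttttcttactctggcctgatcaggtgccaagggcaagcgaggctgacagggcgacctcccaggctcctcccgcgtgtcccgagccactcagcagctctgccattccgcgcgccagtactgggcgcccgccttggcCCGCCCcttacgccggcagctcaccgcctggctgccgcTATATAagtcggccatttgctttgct
Ucp2: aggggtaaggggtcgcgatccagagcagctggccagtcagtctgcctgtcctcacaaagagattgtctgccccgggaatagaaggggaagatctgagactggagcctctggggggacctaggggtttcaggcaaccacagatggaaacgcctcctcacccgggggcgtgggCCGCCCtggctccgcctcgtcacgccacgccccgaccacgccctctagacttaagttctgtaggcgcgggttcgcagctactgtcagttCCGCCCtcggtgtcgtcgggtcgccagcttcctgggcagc
Slc25a12: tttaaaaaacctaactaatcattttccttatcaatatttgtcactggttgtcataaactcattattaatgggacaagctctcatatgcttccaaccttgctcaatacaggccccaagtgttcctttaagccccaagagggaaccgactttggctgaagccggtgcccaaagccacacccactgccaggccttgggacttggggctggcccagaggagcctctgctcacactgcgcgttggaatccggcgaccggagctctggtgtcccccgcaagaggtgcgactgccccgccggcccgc
Slc25a29 held 2 CCAAT boxes and 3 GC boxes, Slc25a5 a TATA box and a GC box, Ucp2 2 GC boxes, and Slc25a12 none of the 6 motifs. No match overlapped another. The TATA match of Slc25a5 starts at base 275 of its window, which is past the RefSeq start. It lies 30 bases before the gene start in GENCODE M21, so the RefSeq and GENCODE starts of this gene differ.

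Across the family, the GC box was found in 27 of the 31 tested members with a window, and in 35.7% of all 32851 RefSeq windows. The 31 are tested genes counted by gene, while the 32851 are single windows not limited to tested genes. The shares are therefore not like for like, and the share among all tested genes was not computed. The CCAAT box was found in 17 of the 31 and in 37.4% of all windows, and the TATA box in 3 of the 31 and in 24.7% of all windows. The E-box and the ETS core were each found in 6 of the 31, and in 7.15% and 8.86% of all windows. The NF-kB motif was found in 3 of the 31 and in 4.51% of all windows. These are matches of letters in this window, and binding was not measured.

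The 10 untested members had between 0 and 41 counts summed over a group. Among them were Slc25a31, the translocase isoform of testis, with 9 counts in Eda-/- and 5 in wild-type glands, and the ornithine carrier gene Slc25a2, with 5 and 3 counts. Slc25a34, a little-known relative of the dicarboxylate carriers, had 3, 9 and 8 counts in Eda-/- glands, against 2, 1 and 1 counts in wild-type glands. The ratio of its normalised counts was 6.96 (95% exact binomial interval 2.33 to 28.0, which covers counting error only). Without the filter on low counts it passed edgeR's test (adjusted p = 0.0114) but not DESeq2's (adjusted p = 0.111). Slc25a45 had 15 counts in Eda-/- and 41 in wild-type glands, a ratio of 0.509 (interval 0.262 to 0.940, again counting error only). Its libraries overlapped, with 0.611, 0.375 and 0.312 CPM in Eda-/- glands, against 0.561, 0.941 and 1.03 CPM in wild-type glands. Without the filter on low counts Slc25a45 did not pass edgeR's test. Ucp3, the muscle isoform, had 3 counts in Eda-/- and 1 in wild-type glands, and Slc25a21, Slc25a41, Slc25a43 and Slc25a54 had at most 4 counts in a group.

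Of the 8 pairs of related carriers whose ratio was compared within libraries, the groups separated in 2, Slc25a4 to Slc25a5 and Slc25a36 to Slc25a33, and no adjusted p was below 0.4. The log2 ratio of Slc25a25 to Slc25a24 was 2.40, 2.81 and 2.21 in Eda-/- glands and 2.10, 2.24 and 1.38 in wild-type glands, with a slight overlap (exact permutation test, p = 0.2). The ratios of the mitoferrins, Slc25a28 to Slc25a37, and of the glutathione carriers, Slc25a39 to Slc25a40, differed by 0.10 and 0.20 (exact permutation test, p = 0.4 for each), with overlap.

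**Figure D4:**
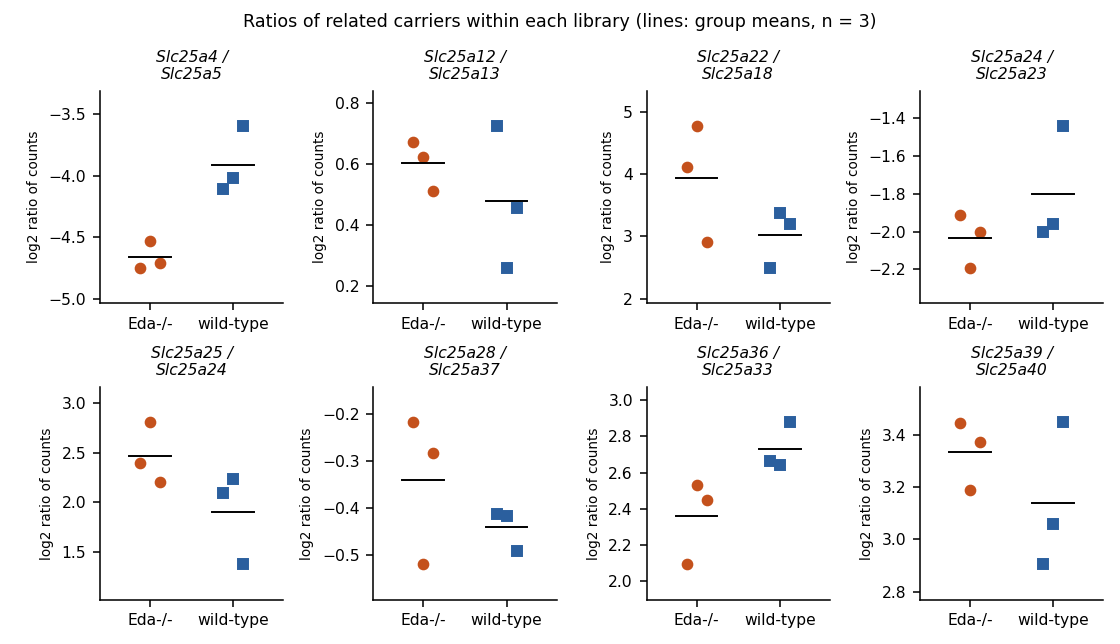
Log2 ratio of the counts of 8 pairs of related carriers in each library, Eda-/- as circles on the left and wild-type as squares on the right, with lines at the group means (n = 3). The groups do not overlap for Slc25a4 to Slc25a5 and for Slc25a36 to Slc25a33, and overlap in the other 6 panels.

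Genes that work with the carriers were read from lists chosen with earlier results of these data known. Of 21 tested enzymes of the shuttles that carriers serve, 7 were higher and 1 was lower (median 0.163), 33.3% higher beside 6.21% of all tested genes. Gpd1, the cytosolic enzyme of the glycerol phosphate shuttle, had 31.6, 28.9 and 35.3 CPM in Eda-/- glands, against 16.8, 21.2 and 22.3 CPM in wild-type glands (log2 fold change 0.67, SE 0.112, edgeR adjusted p = 0.00106). Its groups did not overlap, and it passed without each library in turn. Gpd2, the mitochondrial enzyme of the same shuttle, was the lower gene (-0.46, edgeR adjusted p = 0.0437). It had 11.1, 12.2 and 15.8 CPM in Eda-/- glands, against 15.4, 20.4 and 18.3 CPM in wild-type glands, which overlapped. Gpd2 passed in 2 of the 6 fits that left out a library. It did not pass with DESeq2, limma-voom, a fit that was not robust, or the GC and length trend taken out. Oat, which turns ornithine into glutamate semialdehyde, had a log2 fold change of 0.29 (adjusted p = 0.0123). Mdh1, the cytosolic malate dehydrogenase, also had 0.29 (adjusted p = 0.0137). Both passed in 5 of the 6 fits that left out a library. Got1, the cytosolic aspartate aminotransferase that acts beside Slc25a12 and Mdh1, was higher by 0.66 (adjusted p = 0.0193; past the test in 3 of the 6 fits), while its mitochondrial partner Got2 (0.19, adjusted p = 0.163) did not pass. Gpd2, Got1 and Got2 are named because of their values, which were seen first. The number of higher shuttle enzymes was 3 without Eda-/- 1 or Eda-/- 3, 4 without wild-type 1 or wild-type 2, 4 with DESeq2 and 1 with library totals.

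Of 24 other mitochondrial channels and carriers tested, 5 were higher and none was lower (median 0.136), 20.8% higher beside 6.21% of all tested genes. Smdt1, a subunit of the calcium uniporter, had 22.5, 19.9 and 22.1 CPM in Eda-/- glands, against 14.3, 16.3 and 15.4 CPM in wild-type glands (log2 fold change 0.49, SE 0.0954, edgeR adjusted p = 0.00321). The groups did not overlap. Mcur1, a regulator of the uniporter, was higher by 0.51 (adjusted p = 0.0228), and Letm1, a cation exchanger of the inner membrane, by 0.37 (adjusted p = 0.0216). They passed in 3 and 2 of the 6 fits that left out a library, and Smdt1 in all 6. The count of 5 was 2 without Eda-/- 2 or Eda-/- 3, 1 without wild-type 1, 3 without wild-type 2, 1 with DESeq2 and 0 with library totals, under which 5 were lower. Of 13 genes for the import of carrier proteins, Timm29 alone passed (0.27, adjusted p = 0.0444). It did not pass in 5 of the 6 fits that left out a library. Of 16 ATP synthase genes, Atp5b alone passed (0.23, adjusted p = 0.0409), and it did not pass without any 1 of the libraries. Timm29 and Atp5b made up 7.69% and 6.25% of their lists, near the 6.21% of all tested genes that were higher. The medians were 0.221 for the import genes and 0.142 for the ATP synthase genes. With library totals the medians of all 3 lists were below 0 (-0.145, -0.057 and -0.138), above the shift of -0.28 of all genes.

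Of 16 tested genes of heme and iron-sulphur synthesis, 4 were higher and 1 was lower (median 0.203). The shares to set beside these counts are those of all tested genes, 6.21% higher and 6.9% lower. Alad, the second enzyme of heme synthesis, had 24.6, 19.7 and 20.4 CPM in Eda-/- glands, against 6.48, 6.00 and 5.71 CPM in wild-type glands, far apart (log2 fold change 1.83, SE 0.119, edgeR adjusted p = 3.6e-08). Hdhd3, the neighbouring tested gene on chromosome 4, named after its values were seen, had 4.02, 3.09 and 4.29 CPM in Eda-/- glands, against 1.25, 0.882 and 0.642 CPM in wild-type glands (2.03, edgeR adjusted p = 0.000143). The part of this chromosomal region, gene copy number included, in the Alad values was not tested. The scaffold gene Iscu (0.42, adjusted p = 0.00818) and the cysteine desulphurase gene Nfs1 (0.43, adjusted p = 0.0133), which make iron-sulphur clusters, were higher too. Alas2, the red cell isoform of the first heme enzyme and one of the erythroid markers above, was lower (-1.03, adjusted p = 0.0488), and passed in 1 of the 6 fits that left out a library. Alad and Iscu passed in all 6 and Nfs1 in 4. The count of 4 was 2 without Eda-/- 1 or wild-type 2, and 1 with library totals. Of 11 tested regulators of mitochondrial biogenesis none passed edgeR's or DESeq2's test, and 1 had an unadjusted p under 0.05. The 2 most abundant, Gabpa (-0.02) and Yy1 (0.02), had values near 0. With library totals 4 of the 11 were lower (median -0.262), and with the GC and length trend taken out 1 was higher.

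**Figure D5:**
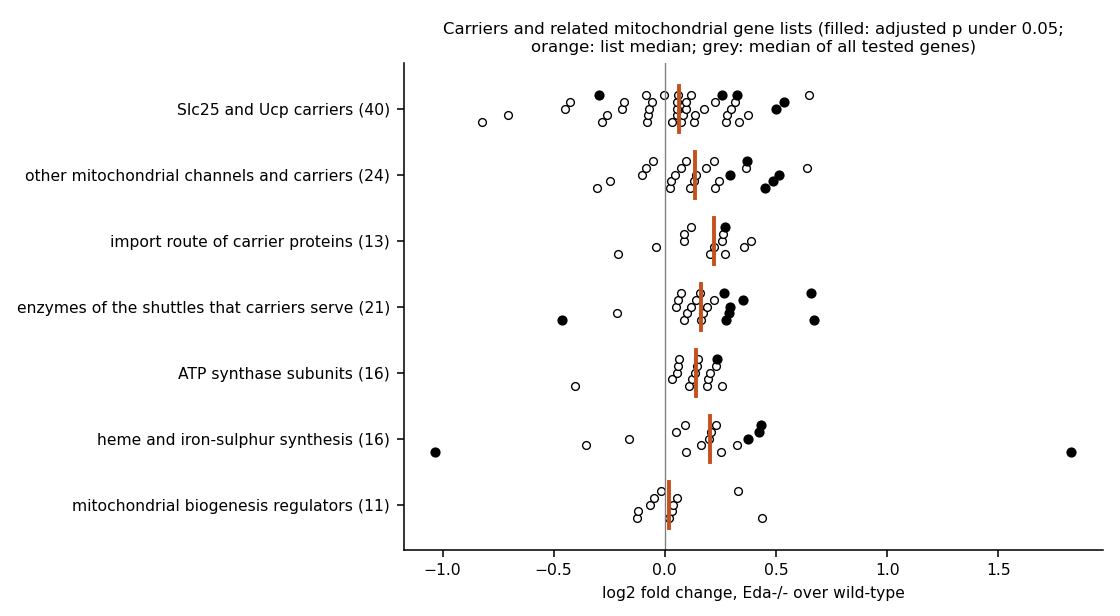
Log2 fold change of each tested gene, Eda-/- over wild-type, for the carriers and 6 related lists (number tested in brackets), with filled points past the test, an orange bar at each list's median and a grey line at the median of all tested genes. The medians lie between 0.019 for the biogenesis regulators and 0.221 for the import route, and Alad at 1.83 is the point farthest from 0.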

How the data were processed

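Total RNA from 6 lacrimal glands had been made into directional libraries after ribosomal RNA removal, per the labels' protocols. The authors deposited 1 table of raw counts per gene. The submitters' processing notes name bcl2fastq, Trimmomatic, STAR, featureCounts, DESeq2 and the build GRCm38.p5. Tool versions, the strand setting and how multiply mapped reads were treated were not stated in these sources. Groups came from the genotype labels, and 0 columns were left unmatched. Of 50686 gene identifiers 50462 matched GENCODE M21, which gave symbols, biotypes and coordinates.

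The main test was edgeR 4.0.16 under R 4.3.3 (filterByExpr with a minimum count of 10, TMM, robust quasi-likelihood fit on genotype alone, two-sided, Benjamini-Hochberg over 13178 genes, threshold 0.05). The common biological coefficient of variation was 0.103. CPM values are TMM-scaled, and ± gives the SD over 3 libraries. Paralogue ratios used counts plus 0.5. Alternatives were DESeq2 1.42.0, limma-voom (limma 3.58.1), other scalings and filters, removal of the 20 most abundant genes, a GC and length trend, a replicate block, and each library left out; counts of the pathway lists under these were added after the data were seen. Members and lists were chosen with earlier results of these data known. Full statistics are given for members past the test, the 5 highest per kb and the 3 with the smallest p that did not pass, and in each list for up to 3 passing genes by p. No pair of replicates agreed within sampling noise (chi-square per degree of freedom 8.61 to 24.9). The fit was tested on simulated counts. Promoter windows are from RefSeq. The values of 1 member are not reported here.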

Additional observations from a re-analysis of the deposited data

How the results depend on the processing

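With library totals in place of TMM, 4611 genes were called (246 higher and 4365 lower), and the carriers had 1 higher and 9 lower members; the family median was then -0.212, above the median of all genes at -0.28. With library totals 1 shuttle enzyme was higher, against 4 with DESeq2. Signs turned with library totals for Slc25a12 (-0.021), Slc25a10 (-0.22), Slc25a11 (-0.22), Slc25a3 (-0.15) and Slc25a44 (-0.003). They also turned without Eda-/- 1 for Slc25a10 (range over the left-out libraries -0.003 to 0.11) and Slc25a36 (-0.158 to 0.042), and for Slc25a36 (0.057) with the GC and length trend removed, under which calls numbered 1443 higher and 848 lower. For the named members the cause was not tested. With each library left out in turn, the higher carriers numbered 2 to 4 (2 without Eda-/- 1 or Eda-/- 2), the lower carriers 0 to 1 (0 without Eda-/- 1, Eda-/- 3 or wild-type 2) and the higher shuttle enzymes 3 to 6. Without the filter on low counts 6 carriers were higher. Deviations from the group means had correlations of -0.035, 0.021 and -0.094 between same-numbered libraries, and of -0.048 to 0.077 between the others. Deviations from a mean of 3 libraries cancel within a group, so this cannot settle whether the numbers pair the libraries. With the replicate block 3 carriers were higher and 1 lower, and 712 genes were higher and 896 lower. Members with few counts are limited by depth, and 10 of the 50 were not tested.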
